A study of Homo sapiens with 24 samples.

Results

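The miR-181c-5p mimic was given to T-47D cells with WT ER, and its effect on mRNA levels was read from 4 of the 24 libraries of the series. These were the WT libraries with the miR-181c mimic and the WT libraries with the mimic negative control, 1 of each from clone D1 and 1 of each from clone D4. Other WT libraries of the same clones were given the miR-301b mimic or the miR-331 mimic, which act for other miRNAs of the study. They were used below for direct contrasts between mimics. T-47D is an established luminal breast cancer cell line. All clones came from it and differ in the endogenous ESR1 gene, which encodes ER; D538G cells carry a heterozygous ligand-binding domain mutation. Cells of every group were kept in hormone-deprived medium, transfected at 10 nM and collected 24 h later. Each line is 1 clone, so a difference between genotypes is a difference between 2 pairs of clones, and the labels do not join the clone names to their own clone numbers. The 4 libraries, chosen by genotype and treatment only, held 33451179 to 36416281 counts, and 14968 of 26364 genes had enough counts to be tested. Of these, 2452 (16.4%) were called at an adjusted p under 0.05, 1213 up-regulated (8.1%) and 1239 down-regulated (8.28%).

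A miRNA guides an Argonaute protein to mRNAs. Pairing between the seed of the miRNA, its bases near the 5′ end, and a site most often in the 3′UTR leads to decay of the mRNA and to less translation. A mimic is a synthetic duplex that adds the activity of its miRNA, and the mimic negative control has no intended target. Members of the miR-181 family share a seed and are known for roles in lymphocyte development, apoptosis and stress responses, and reported targets include BCL2 family members and ATM.

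The sequence of the mature miRNA is shown because all match classes below follow from it. Capitals mark the seed, bases 2 to 8. It is encoded at chr19:13874725-13874746, plus strand (RefSeq, GRCh38.p14), and 5 human miRNAs in RefSeq have this seed, itself included. Its family members are shown beside it, and the fifth is miR-4262.
miR-181c-5p: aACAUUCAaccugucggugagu
miR-181a-5p: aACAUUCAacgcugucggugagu
miR-181b-5p: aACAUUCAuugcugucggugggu
miR-181d-5p: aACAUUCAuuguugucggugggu

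Sites for this seed read TGAATGT in a transcript. A site of 7 bases pairs with miRNA bases 2 to 8 and is called 7mer-m8, or 8mer when an A follows it. A 7mer-A1 pairs with bases 2 to 7 and is followed by an A, and a 6mer pairs with bases 2 to 7 alone. The following 30-base windows of 3′UTRs (GENCODE annotation on GRCh37, the hg19 build of the files) hold sites of genes that the results turn on, with the match in capitals. KIF3B, SAMHD1, SSB and HMGB2 were among the largest falls, ESR1 encodes ER itself, and CALU holds an 8mer but rose.
KIF3B 8mer, chr20:30922248-30922277, plus strand, exon 9: tcctccctcacTGAATGTAgaatcgttgcc
SAMHD1 8mer, chr20:35521207-35521236, minus strand, exon 16: attttgtatttTGAATGTAcacgcatgctg
SSB 8mer, chr2:170668423-170668452, plus strand, exon 12: tgagatttcttTGAATGTAttgttctgttt
HMGB2 7mer-m8, chr4:174252988-174253017, minus strand, exon 5: gcttctgatgtTGAATGTtcctaaatattt
ESR1 8mer, chr6:152422088-152422117, plus strand, exon 8: tatcagacaatTGAATGTAgtaattctgtt
CALU 8mer, chr7:128411797-128411826, plus strand, exon 7: acaagcgattcTGAATGTAcacacacgttt

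The cells carried the markers of their label. All 9 luminal epithelium markers were tested, and their summed level was 10990 and 11600 CPM (counts scaled to library size by TMM over the 8 WT libraries) in the controls and 11840 and 12230 CPM with the mimic. Of 12 markers of basal, fibroblast, leukocyte and endothelial cells, 9 stayed under 1 CPM in every library. Their sum was 61.02 to 79.7 CPM and came mostly from COL1A1. None of the 5 of them that could be tested was called by edgeR without a block, and 1 (COL1A1) was called with one. The 2 libraries of a condition differed by 11.2 and 15.2 times counting noise per gene, so neither is a copy of the other. With 2 against 2 libraries an exact permutation test of a single value cannot give a p below 0.333, so p-values below come from the edgeR quasi-likelihood test with Benjamini-Hochberg adjustment.

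KIF3B, a motor subunit of kinesin-2, was among the most strongly down-regulated genes. It had 237 and 244 CPM in the controls of clones D1 and D4 and 71.6 and 73.4 CPM with the mimic (log2 fold change, log2FC, −1.75, SE 0.0729, adjusted p = 3.8e-06). The clones were nearly equal within each condition, and the groups did not overlap. Its transcript holds 2 matches of 7 or more bases in the 3′UTR and 1 in the coding sequence. SSB encodes the La protein, which binds the ends of RNA polymerase III transcripts. It fell from 106.3 and 109.6 CPM to 43.7 and 41.3 CPM (log2FC −1.37, SE 0.0784, adjusted p = 3.13e-05). SAMHD1, a hydrolase of deoxynucleotide triphosphates, had 28.2 and 30.9 CPM in the controls and 10.3 and 10.0 CPM with the mimic (log2FC −1.56, SE 0.116, adjusted p = 5.84e-05).

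The other large falls included regulators of chromatin, splicing and transcription. The chromatin protein HMGB2 had 59.7 and 65.3 CPM in the controls and 21.6 and 27.0 CPM with the mimic (log2FC −1.38, SE 0.116, adjusted p = 0.00011). The splicing regulator PTBP3, with 3 sites in its 3′UTR, had 252 and 243 CPM against 82.8 and 109.6 CPM (−1.38, SE 0.116, adjusted p = 0.00011). In both genes the fall was larger in clone D1 than in clone D4. CREBL2, a bZIP protein related to CREB, showed the widest gap between clones: it had 18.9 and 22.1 CPM in the controls and 4.22 and 8.45 CPM with the mimic (−1.72, SE 0.258, adjusted p = 0.00212). HDHD1, a pseudouridine phosphatase, GSKIP, a binding partner of GSK3B, and SOWAHA, an ankyrin repeat protein, had log2 fold changes of −1.67, −1.504 and −1.40. All of these genes hold at least 1 match of 7 bases in the 3′UTR. ZNF788 (−1.80) and ANKRD36BP1 (−1.46) had no coding sequence or 3′UTR in the annotation used, so no site was read for them. They may also share reads with related copies. The remaining fall was ZNF420 (−1.37), a zinc finger gene described below. All 12 remained called with the clone as a block and with the GC correction explained below, and when any library was left out.

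**Figure D1:**
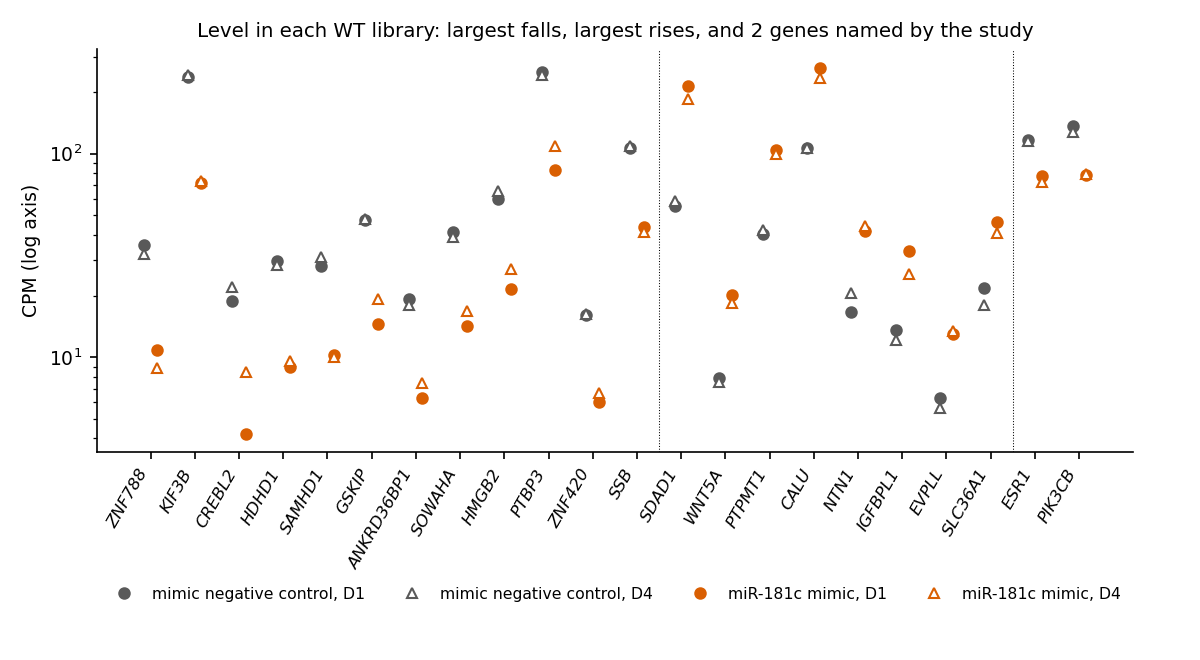
Level of each named gene in the 4 WT libraries, in CPM on a log axis; grey symbols are the mimic negative control and orange symbols the miR-181c mimic, with filled circles for clone D1 and open triangles for clone D4. In each of the 12 falls at the left and the 8 rises in the middle the 2 groups do not overlap. These genes were chosen as the largest changes among called genes whose clones shared a direction, which favours such separation. CREBL2 shows the widest gap between the clones given the mimic.

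Of the 8 largest rises, 6 were in genes without a 7-base match to miRNA positions 2 to 8 in the 3′UTR. That is near the share over all genes, as 10345 of the 13140 tested with a 3′UTR had no such match. SDAD1, which acts in ribosome biogenesis, had 55.4 and 58.5 CPM in the controls and 214 and 185 CPM with the mimic (log2FC 1.79, SE 0.0885, adjusted p = 1.08e-05). Its level was also 157 and 115 CPM with the miR-301b mimic and 319 and 300.0 CPM with the miR-331 mimic in the same clones. These levels share the same control libraries as reference. Set directly against the other mimics, SDAD1 was 0.54 higher on the log2 scale than with miR-301b (SE 0.134, adjusted p = 0.0357) and differed by −0.63 from miR-331 (SE 0.0785, adjusted p = 0.00213). PTPMT1, a mitochondrial phosphatase of cardiolipin synthesis, had 40.5 and 42.2 CPM in the controls and 104 and 99.9 CPM with the mimic (1.28, SE 0.0785, adjusted p = 3.7e-05). Its direct contrasts differed by 0.08 from miR-301b (SE 0.0982, adjusted p = 0.748) and by 0.10 from miR-331 (SE 0.0683, adjusted p = 0.42), both smaller than its change against the control.

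WNT5A, a ligand of non-canonical Wnt signalling, rose from 7.93 and 7.56 CPM to 20.2 and 18.6 CPM (log2FC 1.30, SE 0.136, adjusted p = 0.000338). NTN1, the guidance cue netrin 1, and IGFBPL1, a relative of the IGF binding proteins, both had log2 fold changes of 1.18. EVPLL, an envoplakin-like gene, had 1.13, and SLC36A1, a lysosomal amino acid transporter with 1 site, had 1.11. The direct differences of these 5 from the miR-301b mimic were not called (adjusted p = 0.091 to 0.73), and from the miR-331 mimic SLC36A1 differed (0.49, SE 0.0921, adjusted p = 0.0133). CALU, a calcium-binding protein of the endoplasmic reticulum, held 2 sites in its 3′UTR, yet it had 107 CPM in both controls and 265 and 236 CPM with the mimic (1.21, SE 0.0781, adjusted p = 3.74e-05). It was also 0.45 higher on the log2 scale than with the miR-331 mimic (SE 0.0724, adjusted p = 0.00617), and its difference from the miR-301b mimic, 0.19, was not called (SE 0.0929, adjusted p = 0.319).

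**Figure D2:**
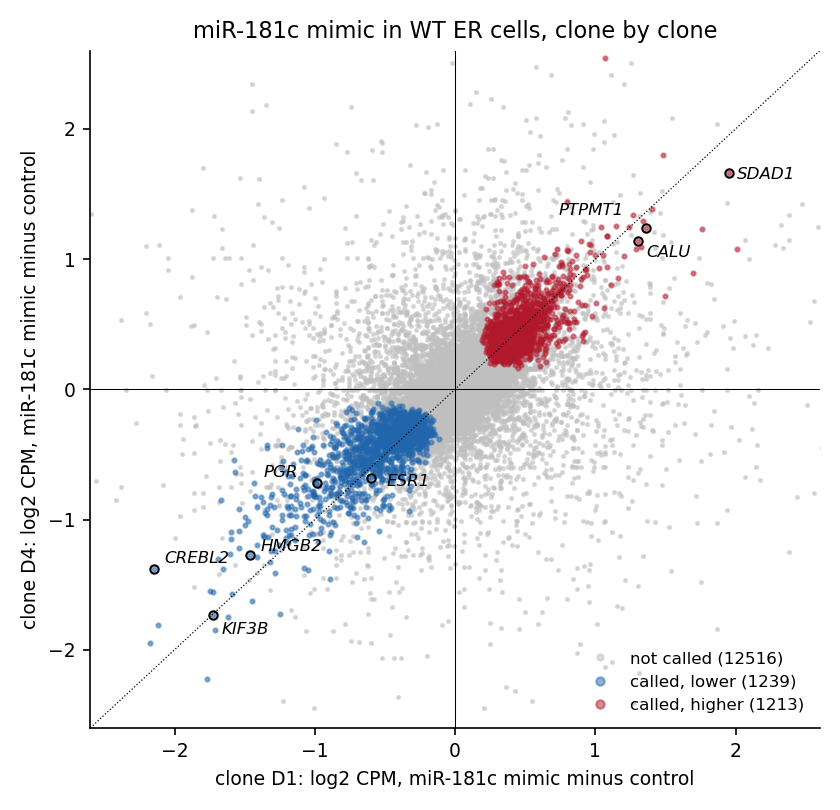
Log2 CPM with the miR-181c mimic minus log2 CPM with the control, in clone D1 (x axis) and clone D4 (y axis), for the 14968 genes tested; blue genes were called lower, red genes higher and grey genes neither, and 47 genes lie outside the axes. Called genes follow the dotted line of equal change, and KIF3B lies on it while CREBL2 and PGR fell further in clone D1.

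Genes of interest in ER biology were among those that changed. ESR1 had 117 and 116 CPM in the controls and 77.5 and 72.5 CPM with the mimic (log2FC −0.66, SE 0.0752, adjusted p = 0.000496). The groups did not overlap, and the change was −0.60 in D538G cells (SE 0.0968, adjusted p = 0.0074). ESR1 was also 73.4 and 71.3 CPM with the miR-301b mimic, and the direct difference between these mimics, 0.04, was not called (SE 0.0938, adjusted p = 0.89). It was lower with the miR-181c mimic than with the miR-331 mimic by 0.28 on the log2 scale (SE 0.0716, adjusted p = 0.0453). PGR, the progesterone receptor gene and a well known ER target, has 2 sites of its own. It had 1003 and 1023 CPM in the controls and 508 and 621 CPM with the mimic (−0.86, SE 0.0912, adjusted p = 0.000359), and it was lower than with the miR-301b mimic (−0.66, SE 0.107, adjusted p = 0.00395) and the miR-331 mimic (−0.53, SE 0.117, adjusted p = 0.0264).

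Of 34 tested genes of the estrogen response list, 10 fell (29.4%, beside 8.28% of all genes), 4 rose (11.8%, beside 8.1%) and 20 were not called, and the median log2 fold change was −0.19 beside 0.01 over all genes. This median rested on clone D1: it was −0.17 in D1 and −0.04 in D4, and it became −0.02 without the mimic library of D1 and −0.35 without that of D4. The falls included THBS1, a matrix glycoprotein (473 and 466 CPM against 291 and 306 CPM, log2 fold change −0.68), ADCY9, an adenylyl cyclase (−0.93), GREB1, an ER coregulator (−0.56), and MYB (−0.70). GREB1 and MYB hold no site in the 3′UTR and THBS1 and ADCY9 do. CCND1, which encodes cyclin D1, rose (0.40, adjusted p = 0.0039). Of the 14 calls of this list, 9 remained with the GC correction.

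Among the genes that the study names for its mimics or its let-7f inhibitor, PIK3CB, the catalytic subunit p110β of PI3K, had 136 and 128.5 CPM in the controls and 78.9 and 79.4 CPM with the mimic (log2FC −0.76, SE 0.0744, adjusted p = 0.000236). It had 80.96 and 67.5 CPM with the miR-301b mimic, and the direct difference of 0.08 was not called (SE 0.107, adjusted p = 0.787). PLAGL2, a zinc finger transcription factor without a site, had 123 and 119.7 CPM in the controls and 196 and 174 CPM with the mimic (0.59, SE 0.0788, adjusted p = 0.00117). Its level differed from both other mimics, by 0.64 from miR-301b (SE 0.0929, adjusted p = 0.00195) and by 0.66 from miR-331 (SE 0.0754, adjusted p = 0.00165). The mitochondrial protein gene TUSC2 rose (0.37, adjusted p = 0.0161) and the mitotic kinesin gene KIF14 fell (−0.41, adjusted p = 0.0242), and both calls were lost with the GC correction (adjusted p = 0.089 and 0.368). The kinase genes PRKD3 (−0.16, SE 0.0917, adjusted p = 0.262) and CDK1 (0.01, SE 0.0788, adjusted p = 0.929) were not called. CDK1 was called at 0.31 with the GC correction alone (adjusted p = 0.0153) and together with the block (adjusted p = 0.00057).

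Fold changes differed by the class of site in the 3′UTR, with 8mers lowest, both 7-base classes close together and genes without a site highest. The median log2 fold change was −0.32 in 920 genes with an 8mer, −0.13 in 1875 with a 7mer-m8 at best, −0.145 in 754 with a 7mer-A1, −0.03 in 1698 with a 6mer and 0.10 in 7893 with none. The share called lower was 40.0% with an 8mer, 20.3% with a 7mer-m8, 22.55% with a 7mer-A1, 8.42% with a 6mer and 1.81% without a site, beside 8.28% over all genes. With the clone as a block, a fit described below, 484 of the 920 genes with an 8mer were called lower and 22 higher, beside 13.4% and 14.5% of all genes. Genes called higher without the block showed the reverse order, from 0.978% with an 8mer to 12.4% without a site. The 8mer class minus the class without a site was −0.46 in clone D1 and −0.37 in clone D4 (SD of the 2 values 0.0681).

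**Figure D3:**
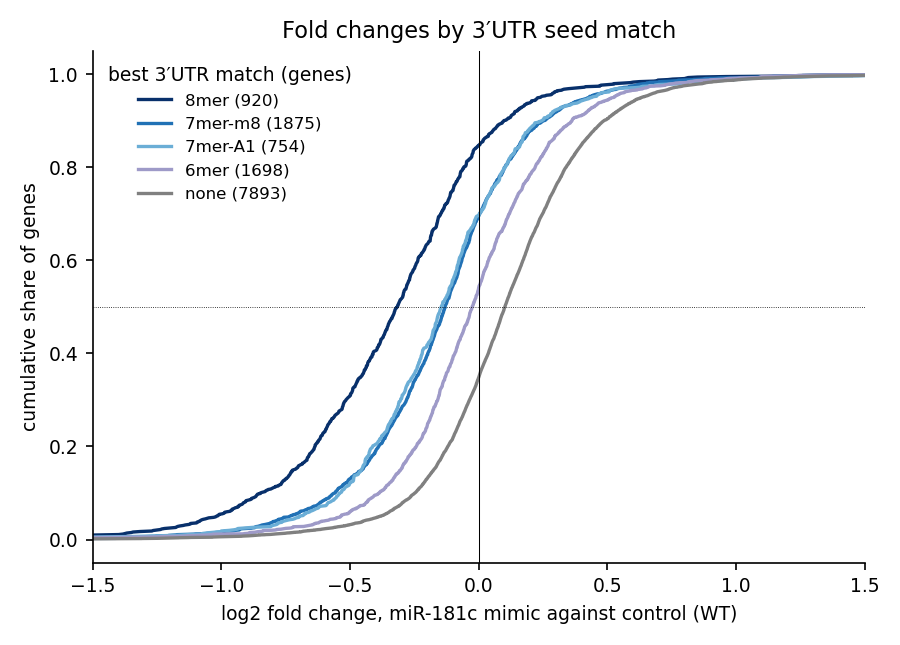
Cumulative share of genes (y axis) by log2 fold change of the miR-181c mimic against the control in WT cells (x axis), with 1 line for each class of best match in the 3′UTR and the number of genes in brackets. The 8mer line lies furthest to the left (median −0.32), the lines of both 7-base classes run close together, and the line without a site lies furthest to the right (median 0.10).

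The number of sites moved with the size of the fall. Genes with 1, 2, 3 and 4 or more sites that were 7mer-m8 or 8mer had medians of −0.14, −0.28, −0.38 and −0.45. Of them 22.2%, 35.9%, 46.2% and 55.6% were called lower, beside 8.28% of all genes. With the GC correction these medians were −0.04, −0.13, −0.18 and −0.26. The genes with the most sites did not fall furthest. ZNF594 with 8 sites had a log2 fold change of −0.42, NCKAP1, an actin regulator with 7 sites, −0.14 (adjusted p = 0.194), TMEM106B, a lysosomal membrane protein with 7 sites, −0.47, ZNF780B with 7 sites −0.65 and the nuclear import receptor TNPO1 with 6 sites −0.33. These long 3′UTRs run from 2298 to 16587 bases. All but NCKAP1 were called, and with the GC correction without the block ZNF594, TMEM106B, ZNF780B and TNPO1 were no longer called (adjusted p = 0.141, 0.356, 0.0671 and 0.732) and NCKAP1 had 0.08.

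Of 1205 down-regulated genes with an annotated 3′UTR, 749 (62.2%) held a match of 7 bases to positions 2 to 8, and 1062 (88.1%) held a match of any class. Among 1200 up-regulated genes these shares were 6.42% and 18.4%, and among the 13140 tested they were 21.3% and 39.9%. When 7-base matches in the coding sequence were also counted, 900 (74.7%) of the down-regulated genes held one. This share was 11.9% among the up-regulated genes and 31.1% among the 13140 tested.

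Base composition moved with these results. Site-bearing transcripts were AT-rich, with a median GC content of 41.9% for the 8mer class and 52.98% for genes without a site. Fold changes ran with GC content in all genes: the median log2 fold change was −0.19 in the lowest of 5 equal GC classes (30.7% to 40.7%) and 0.30 in the highest (58.8% to 75.97%). It ran the same way in clone D1 (−0.22 to 0.31), in clone D4 (−0.14 to 0.33) and in D538G cells (−0.15 to 0.31). In genes without a site of any class in the 3′UTR the medians were −0.12, −0.06, 0.03, 0.15 and 0.31 from the lowest GC content to the highest. The 8mer class lay below the class without a site in each of the 5 classes, by −0.29, −0.29, −0.29, −0.17 and −0.28 from the lowest GC content to the highest. With the trend of each library with GC content removed, the 8mer median was −0.19 and that of genes without a site 0.05, and 1115 genes were called instead of 2452. The medians of the 7mer-m8, 7mer-A1 and 6mer classes were then −0.03, −0.04 and 0.04. What part of the trend with GC content arose from the sites was not tested.

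Because each clone gave a library to both conditions, the clone was also fitted as a block. The block raised the number of called genes to 4173 (27.9%), 2168 of them higher (14.5%) and 2005 lower (13.4%), and with block and GC correction together 2555 were called. The number without the block fell to 888 without the control library of clone D1, 1220 without that of clone D4 and 1768 without the mimic library of clone D4.

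Sites in the coding sequence also went with lower levels. Among genes without a match of 7 bases in the 3′UTR, those with 0, 1, 2, 3, 4 and 5 or more such matches in the coding sequence had medians of 0.08, −0.05, −0.14, −0.15, −0.23 and −0.41. Of the 88 genes with 5 or more, 36 (40.9%) were called lower and none higher by edgeR without a block, beside 8.28% and 8.1% of all genes. Fitted with it, 49 were called lower and 1 higher, beside 13.4% and 14.5% of all genes. The difference between the last class and the first was −0.50 in clone D1 and −0.47 in D4. It was −0.30 with the GC correction.

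Most of these 88 genes, 72 of them, were zinc finger genes with a ZNF symbol. Proteins of this class bind DNA through tandem C2H2 fingers, short domains repeated many times along the protein, and many of them repress transcription through a KRAB domain. Of the 437 tested ZNF genes with an annotated coding sequence, 270 (61.8%) held at least 1 coding match, against 12.1% of 12721 other genes. They held 1.69 coding matches per kb, against 0.0887 in other genes. In the 270 genes 97.5% of 1414 matches began at the last position of a codon, while in other genes 49.8% did. The commonest distance between neighbouring matches was 84 bases, the length of a finger with its linker, and 63.55% of the 1144 neighbouring pairs in ZNF genes were spaced by a multiple of it.

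Neighbouring coding sites of ZNF420 and ZNF33A show this repeat. Capitals mark the match, and each window lies 84 bases downstream of the window of the same gene above it.
ZNF420, chr19:37618635-37618664, plus strand, exon 5: gagaaaccttaTGAATGTAaagaatgtggg
ZNF420, chr19:37618719-37618748, plus strand, exon 5: gaaaagctctaTGAATGTAaagaatgtagg
ZNF420, chr19:37618803-37618832, plus strand, exon 5: gagaaaccctaTGAATGTAaggaatgtgga
ZNF33A, chr10:38345045-38345074, plus strand, exon 5: tataaatgtaaTGAATGTggaaaatctttc
ZNF33A, chr10:38345129-38345158, plus strand, exon 5: tatgaatgcaaTGAATGTgggaaattcttc
ZNF33A, chr10:38345213-38345242, plus strand, exon 5: tgtcaatgtaaTGAATGTggaaaaatcttt

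ZNF genes were lower as a group with the mimic. Of 445 tested, 113 (25.4%) fell, beside 8.28% of all genes, and 14 rose (3.15%, beside 8.1%). The block gave 166 falls and 27 rises, beside 13.4% and 14.5% of all genes. The median log2FC was −0.24. The median was 0.05 in 167 ZNF genes without a coding match and −0.25 in 141 with 1 to 4. It was −0.44 in 92 with 5 to 9 and −0.58 in 37 with 10 or more, of which 23 (62.2%) were called lower. These classes kept genes that also hold a match in the 3′UTR, as 137 of the 437 ZNF genes with a coding sequence do. The 72 ZNF genes with 5 or more coding matches and none in the 3′UTR had a median of −0.41. ZNF genes with no match in either region had a median of 0.11 and a median GC content of 53.5%. The GC content was 40.7% in those with 10 or more coding matches. With the GC correction the 4 medians by coding match were −0.02, −0.13, −0.28 and −0.41. Close paralogs in this family can share reads, so single members are less certain than the group.

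ZNF420, with 10 coding matches and 2 in the 3′UTR, had 16.1 and 16.4 CPM in the controls and 6.03 and 6.69 CPM with the mimic (log2FC −1.37, SE 0.149, adjusted p = 0.000377). ZNF33A, with 18 coding matches and no 7-base match to positions 2 to 8 in the 3′UTR, had 116.5 and 107.5 CPM in the controls and 75.5 and 70.8 CPM with the mimic (−0.64, SE 0.0792, adjusted p = 0.000801). Both clones fell by similar amounts in each gene. ZNF12, also with 18, had −0.40 (adjusted p = 0.0087, lost with the GC correction at 0.0815), and ZNF268, with 14 in the coding sequence and 1 in the 3′UTR, had −0.99. TTN, which encodes the giant muscle protein titin, held 19 matches, the most of any tested gene whose average log2 CPM reached 3, but spread over a coding sequence of 107976 bases (0.176 per kb, against 7.39 per kb in ZNF33A). It had 31 and 34.8 CPM in the controls and 34.7 and 28.4 CPM with the mimic, and the groups overlapped (−0.08, SE 0.117, adjusted p = 0.694).

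**Figure D4:**
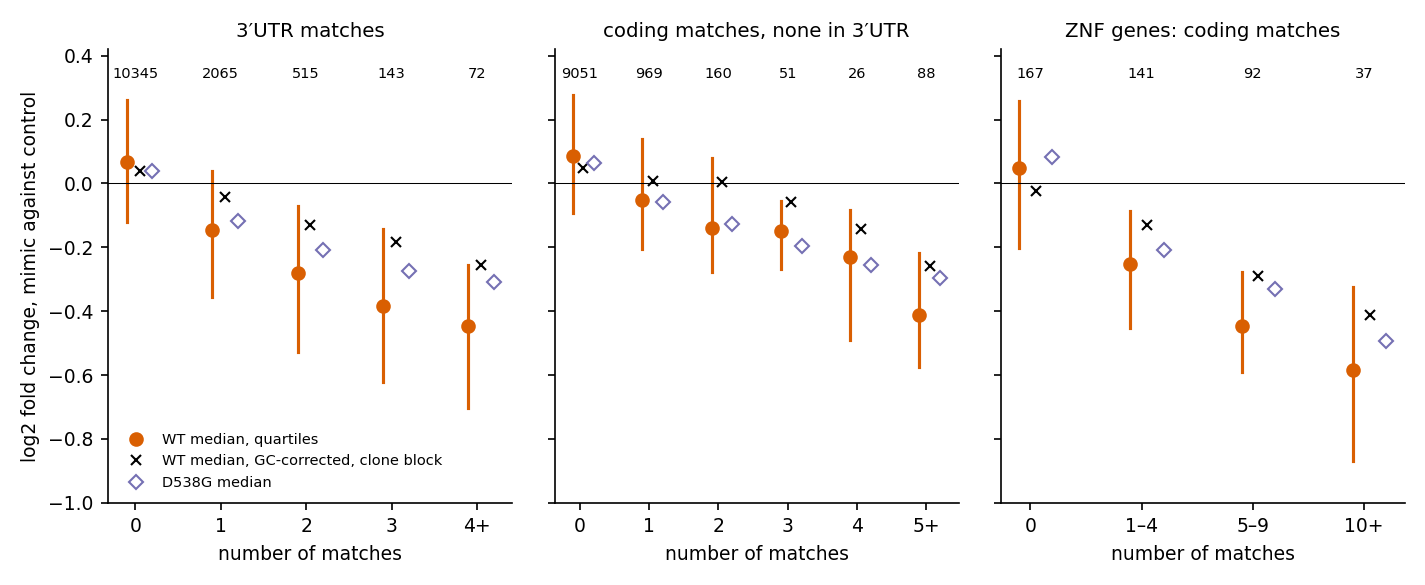
Log2 fold change of the miR-181c mimic against the control (y axis) by the number of 7-base matches in the 3′UTR (left), in the coding sequence of genes with none in the 3′UTR (middle) and in the coding sequence of ZNF genes (right), with the number of genes above each class. The ZNF classes at the right also keep genes with a match in the 3′UTR. Orange points and bars are the WT median and quartiles, crosses the WT median with clone block and GC correction, and diamonds the median in D538G cells; medians were lowest at the highest match numbers in all 3 panels, at −0.45, −0.41 and −0.58 in WT cells.

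Direct contrasts of mimics in the same clones used no control library. The miR-181c mimic differed from the miR-301b mimic in 926 of 15081 genes (6.14%) and from the miR-331 mimic in 1280 of 15055 (8.5%), or 2680 with the block. The second number rested on single libraries: it was 2567 without the miR-181c library of clone D4, and 626 and 503 without the miR-331 libraries of clones D1 and D4. Of 1233 tested genes called lower against the control, 372 (30.2%) were also lower than with the miR-301b mimic, beside 495 of all 15081. For 1213 called higher it was 132 (10.9%), beside 431. Against the miR-331 mimic it was 457 of 1230 (37.15%), beside 633 of all 15055, and 191 of 1213 (15.75%), beside 647. Median differences were −0.31 and −0.28 in genes called lower and 0.10 and 0.05 in those called higher. Genes with an 8mer for miR-181c in the 3′UTR had a median log2 difference of −0.23 from the miR-301b mimic and −0.17 from the miR-331 mimic, while genes without a site had 0.04 and 0.02. Genes with an 8mer for miR-301b and no 7mer-m8 or 8mer for miR-181c moved the other way in the contrast with the miR-301b mimic, with a median of 0.20. Those with an 8mer for miR-331 instead had 0.09 in the contrast with the miR-331 mimic. KIF3B was lower than with either mimic, by −1.66 (SE 0.0894, adjusted p = 1.27e-05) and −1.51 (SE 0.0657, adjusted p = 3.94e-05). HMGB2 was lower too, by −1.70 (adjusted p = 4.36e-05) and −1.28 (adjusted p = 0.000452). ZNF genes as a group had medians of −0.09 and −0.05 in these contrasts, and those with 10 or more coding matches −0.37 and −0.26. Among genes without a 7mer-m8 or 8mer in the 3′UTR, 5 or more coding matches were compared with 0. The difference of medians was −0.18 and −0.17 in these contrasts, beside −0.50 against the control.

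A list of reported miR-181 targets moved down. Of 31 tested, 14 fell (45.2%, beside 8.28% of all genes), 1 rose (3.23%, beside 8.1%) and 16 were not called, with a median log2 fold change of −0.35. Such targets are commonly found by searching for sites, and 27 of the 31 had a 7mer-m8 or 8mer in the 3′UTR. HSPA5, CYLD and MCL1, not among the 27, had a 7mer-A1. The acetyltransferase gene KAT2B had 45.3 and 43.6 CPM in the controls and 24.2 and 21.25 CPM with the mimic (−0.99, SE 0.1, adjusted p = 0.000289), and the groups did not overlap. The chaperone gene HSPA5 had −0.68 and the E2F family member E2F5 −1.09. MCL1, an inhibitor of apoptosis, was the member that rose (0.37, adjusted p = 0.00779), a call lost without the control library of clone D4 (0.31, adjusted p = 0.0841). The list median was −0.25 with the GC correction, which left 10 of the 14 falls called. BCL2 was near the detection limit (1.66 ± 0.839 CPM in controls and 1.08 ± 0.0718 CPM with the mimic, SD, n = 2) and was not called (−0.63, SE 0.437, adjusted p = 0.376).

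In RAS, MAPK and PI3K signalling, 8 of 42 genes fell (19.05%, beside 8.28% of all genes) and 5 rose (11.9%, beside 8.1%). With the block 11 fell and 9 rose, beside 13.4% and 14.5% of all genes. The falls included PI3K subunits (PIK3CB, PIK3CA at −0.38 and the regulatory subunit gene PIK3R3 at −0.60), the phosphatase genes PHLPP2 (−0.77) and INPP4B (−0.42), and the exchange factor gene SOS1 (−0.33). PIK3R3 had 222 and 225 CPM in the controls and 153 and 146 CPM with the mimic (SE 0.0695, adjusted p = 0.000527), and its direct differences from the miR-301b (−0.39, adjusted p = 0.0205) and miR-331 mimics (−0.35, adjusted p = 0.0115) were called. The rises were RPTOR (0.45), AKT1 (0.30), AKT2 (0.29), MAPK3 (0.29) and MAP2K2 (0.26). With the GC correction 4 of the 13 calls remained, those of PIK3CB, PHLPP2 and PIK3R3 among them, and MAP2K2 had −0.09. PHLPP2 and INPP4B are known to limit AKT activity, so the falls held activators and inhibitors of the pathway. Its median, −0.03, was close to that of all genes.

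The BCL2 family and IAPs held 18 tested genes, of which 6 rose (33.3%, beside 8.1% of all genes) and none fell (beside 8.28%) with edgeR without a block. Fitted with it, 6 rose and 2 fell, beside 14.5% and 13.4% of all genes. The risers were the pro-apoptotic BAK1 (0.66, adjusted p = 0.00768), BAX (0.56, adjusted p = 0.0113), BAD (0.43) and BOK (0.38) and the anti-apoptotic MCL1 and BCL2L1 (0.26). BAK1 had 14.8 and 14.5 CPM in the controls and 21.2 and 25.9 CPM with the mimic. With the GC correction BAK1 and MCL1 stayed called, while BAX (adjusted p = 0.11), BAD, BOK and BCL2L1 did not. BAX was also lost without the mimic library of D4 (adjusted p = 0.0575) or the control library of D1 (adjusted p = 0.0919). Neither BAK1 nor BAX was called against the miR-301b mimic (adjusted p = 0.377 and 0.497).

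Cell cycle genes went in both directions. Of 41 S phase genes 8 rose (19.5%, beside 8.1% of all genes) and 1 fell (2.44%, beside 8.28%), with a median of 0.10. Fitted with the block, 12 rose and 2 fell, beside 14.5% and 13.4% of all genes. UHRF1, which maintains DNA methylation, had 43.97 and 42.2 CPM in the controls and 70.8 and 69.8 CPM with the mimic (0.68, SE 0.0796, adjusted p = 0.000548), the helicase gene MCM2 rose (0.58, SE 0.0844, adjusted p = 0.00177), and POLA1, which encodes the catalytic subunit of DNA polymerase alpha and has an 8mer, fell (−0.64, SE 0.0961, adjusted p = 0.00213). The S phase median differed between clones (0.27 in D1 and 0.07 in D4) and was 0.24 with the GC correction. Of 54 G2/M genes 7 fell (12.96%, beside 8.28% of all genes) and none rose (beside 8.1%) by edgeR without a block. Among the 54, 10 fell and 5 rose with it, beside 13.4% and 14.5% of all genes. The 7 included HMGB2, LBR, the lamin B receptor gene (−0.80, SE 0.0942, adjusted p = 0.000564), and CKAP2 (−0.39), whose call was lost with the GC correction (adjusted p = 0.426), as were 4 of the 7 in all. The G2/M median of −0.07 became 0.07 with that correction. In a bulk library, fewer cells in a phase and less RNA per cell cannot be told apart.

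DNA repair genes with calls all fell by edgeR without a block, 6 of 41 (14.6%, beside 8.28% of all genes), and none rose (beside 8.1%). The block gave 7 falls and 3 rises among the 41, beside 13.4% and 14.5% of all genes. ATM, the kinase that signals double-strand breaks, had 113.7 and 109.6 CPM in the controls and 79.0 and 68.1 CPM with the mimic (−0.62, SE 0.0864, adjusted p = 0.0014). NBN (−0.45) and BARD1 (−0.57) also fell. NBN, RAD50 and MRE11A, which form a complex that binds such breaks, were all among the 6. Among the 6, ATM alone stayed called with the GC correction (NBN and BARD1, adjusted p = 0.157 and 0.0714). In cell-matrix adhesion 7 of 32 genes rose (21.9%, beside 8.1% of all genes) and 2 fell (6.25%, beside 8.28%). Fitted with the block, 9 rose and 5 fell, beside 14.5% and 13.4% of all genes. The integrin gene ITGA2 (−0.48, adjusted p = 0.00332) and THBS1 each have a site, and the adaptor gene BCAR1 rose (0.58, adjusted p = 0.00435). Of the 7 rises, 6 were lost with the GC correction, BCAR1 among them (adjusted p = 0.09).

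Of 17 tested genes of the miRNA silencing machinery 5 fell (29.4%, beside 8.28% of all genes) and 1 rose (5.88%, beside 8.1%), TARBP2 (log2 fold change 0.35). The block gave 8 falls and 2 rises, beside 13.4% and 14.5% of all genes. The rise of TARBP2 and the fall of PAN3 were lost with the GC correction. DICER1, the nuclease that cuts miRNA precursors, had 292 and 264 CPM in the controls and 183 and 174 CPM with the mimic (−0.66, SE 0.0752, adjusted p = 0.000488). It had 151 and 122.5 CPM with the miR-301b mimic, and the direct difference was not called (0.37, SE 0.108, adjusted p = 0.07). The Argonaute gene AGO4 (−0.74, adjusted p = 0.00208) and TNRC6B, a scaffold of the silencing complex with 4 sites (−0.49, adjusted p = 0.00254), also fell. AGO2, the Argonaute that can cut its target, was not called (−0.22, SE 0.085, adjusted p = 0.114) but was with the block (adjusted p = 0.0397). Of 35 tested interferon-stimulated genes 3 fell (8.57%, beside 8.28%), or 5 with the block (beside 13.4%). None rose by edgeR without the block (beside 8.1% of all genes) or with it (beside 14.5%). The 3 were the RNA sensors IFIH1 (−0.76) and DDX58 (−0.60) and the ubiquitin ligase gene DTX3L (−0.44), of which IFIH1 alone stayed called with the GC correction. The list median had opposite signs in the clones, 0.15 in D1 and −0.42 in D4.

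D538G cells given the same mimic and control shared no library with the WT comparison, and 1412 of 14826 genes (9.52%) were called there, or 4341 with the block. This number was 936, 357 and 715 without the mimic library of clone A5, the mimic library of clone C2 and the control library of clone C2. Of the 1235 genes called lower in WT cells and tested in both, 1224 (99.1%) had the same sign in D538G cells and 505 (40.9%) were called lower there. These 505 were 86.5% of the 584 called lower in D538G cells among all 14449 genes tested in both. Of the 1211 called higher in WT cells, 1198 (98.9%) had the same sign and 607 (50.1%) were called, 73.7% of the 824 higher in D538G cells among the 14449. The share of all 14449 genes with the same sign was not computed. The median of the genes called lower in WT cells was −0.49 in WT and −0.34 in D538G cells; the genes were chosen on their WT values, so a smaller median in the other cells is no finding. The median of the 8mer class, chosen by sequence, was −0.32 in WT and −0.24 in D538G cells, and that of ZNF genes with 10 or more coding matches was −0.58 and −0.49.

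The difference between the responses itself was called in 1 of 15482 genes (0.00646%) by edgeR without a block, in 12 (0.0775%) with the clone as a block and in 2 with DESeq2. At an unadjusted p under 0.05 the numbers were 453 (2.93%), 1090 (7.04%) and 376. The gene called without a block was SDAD1. Its level in D538G cells was 238 and 176 CPM in the controls and 199 and 197 CPM with the mimic, so the WT control libraries, at 55.4 and 58.5 CPM, were the only ones of these 8 under 176 CPM (CPM was scaled separately for each genotype). The response was 1.85 lower on the log2 scale in D538G than in WT cells (−1.85, SE 0.165, adjusted p = 0.00123). KIF3B also changed in D538G cells (246 and 259 CPM to 120.5 and 107.5 CPM, a difference of responses of 0.61, SE 0.105), and ABAT, which encodes GABA transaminase, rose in WT cells (85.5 and 92.0 CPM to 127 CPM in both) and had 149 and 170.3 CPM in D538G controls and 133 and 158 CPM with the mimic (−0.62, SE 0.138). In the filtered fit without a block neither was called (adjusted p = 0.568 and 1). Both were called with the block (adjusted p = 0.000777 and 0.000472) and, without a block, when low counts were not filtered (adjusted p = 0.0006 and 0.00069). KIF3B was the other gene that DESeq2 called (adjusted p = 0.00259), and DESeq2 did not call ABAT (adjusted p = 0.114).

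**Figure D5:**
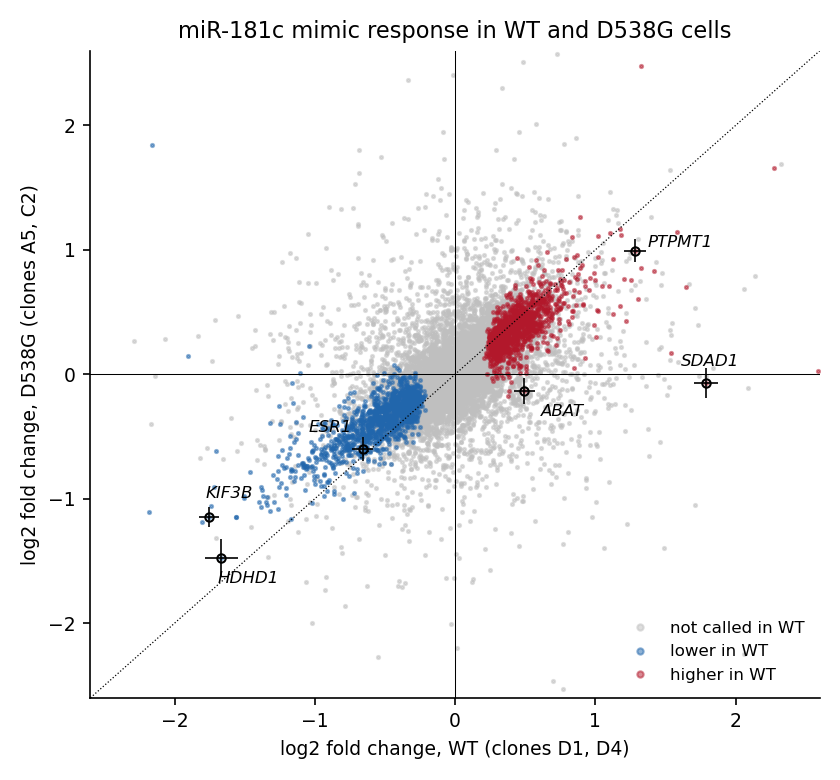
Log2 fold change of the miR-181c mimic against the control in WT cells (x axis) and in D538G cells (y axis) for genes tested in both, coloured by the call in WT cells; bars on named genes are standard errors, the dotted line marks equal change and 11 genes lie outside the axes. Genes called in WT cells mostly lie on the same side of 0 in D538G cells, while SDAD1 (1.79 in WT and −0.07 in D538G) stands apart.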

How the data were processed

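Raw read counts per gene were deposited by the authors as one table per ER genotype. Per the labels and methods, poly-A libraries were made with a stranded kit, and the authors used HISAT2 (hg19), SAMtools and featureCounts of Subread with the UCSC Known Genes annotation; versions, the strand setting and the handling of reads mapping to several genes are not given in the sources used here. Overlapping, antisense and near-identical genes can therefore share reads.

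Genes were filtered with filterByExpr, scaled by TMM and tested with edgeR 4.0.16 (quasi-likelihood F test, R 4.3.3, two-sided, Benjamini-Hochberg) in each comparison's own libraries, and called at an adjusted p under 0.05. The SE is the log2 fold change divided by the square root of F. Printed CPM values were scaled over the 8 WT or the D538G libraries, and log2 CPM used a prior count of 2. Depth was 33451179 to 36416281 counts per library, which limits precision for genes with few counts. Alternatives were DESeq2 1.42.0, RLE size factors, no filter, all 8 WT libraries in 1 fit, a GC correction (lowess trend on transcript GC content, span 0.3), the clone as a block, both together, 8-base sites and leaving out each library. The scripts were tested on simulated data. Column headings name clones D1 and D4, which are cell lines and so pair the libraries (correlation across genes of the clone difference 0.198 in WT and 0.254 in D538G cells); the labels' clone numbers are not joined to these names. The p-values measure the spread between 2 libraries.

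Of 26364 genes, 20651 had their symbol in GENCODE v44 on GRCh37, a further 1353 were found under an older symbol, and 4360 had no match; 18634 had a 3′UTR and 18895 a coding sequence in 1 chosen transcript. This is not the annotation used for counting. Printed sites were checked against the GRCh37 genome; miRNA sequences are from RefSeq. Tables were joined with Python 3.11.15 and pandas 2.3.3.

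The members and lists were chosen with earlier results of these data known. Named genes were, the 12 largest falls and 8 largest rises among called genes averaging 3 log2 CPM or more whose clones shared a direction; 7 genes named by the study; the 3 smallest p-values in each list; the 5 genes with most 3′UTR and the 3 with most coding matches; and the 3 smallest p-values of the difference between D538G and WT. Other list members were named after their values were seen. The lists were reported miR-181 targets, estrogen response, DNA repair, RAS, MAPK and PI3K signalling, cell-matrix adhesion, BCL2 family and IAPs, silencing machinery, interferon-stimulated genes, luminal and other cell type markers, the S phase and G2/M lists of Seurat 5.3.0 and ZNF genes. Some genes that this rule or a list names are not reported here.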

Additional observations from a re-analysis of the deposited data

Results flagged for a closer look

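SDAD1 was flagged because the response to the miR-181c mimic differed between D538G and WT cells in a test of the difference itself (−1.85 on the log2 scale, adjusted p = 0.00123, edgeR quasi-likelihood test). ABAT was flagged because both WT clones moved up and both D538G clones moved down; the difference of −0.62 was not called in the filtered fit without a block (adjusted p = 1), and it was called with the block (adjusted p = 0.000472) or without the filter (adjusted p = 0.00069). The S phase list was flagged because its median was positive in both WT clones (0.27 and 0.07) and negative in both D538G clones (−0.07 and −0.11); the median difference of responses over its genes was −0.21, and this difference was not tested. Groups of 2 libraries are too small for a test of single outlying samples.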

How the results depend on the processing

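Of 71 named log2 values, DESeq2 left 69 of the 70 it gave with the same sign and on the same side of the threshold. RLE size factors left 71 so, no filter on low counts 68 and the clone block 68. The block lost none, added COL1A1, KIF3B and ABAT (the last 2 as differences between genotypes, which leaving out the filter also added) and otherwise changed no call among them. Median log2 fold changes over all genes moved by less than 0.1 under these settings. The GC correction lost 15 calls, and with the block 6; causes of changes were not tested. Leaving out single libraries lost 23 of 296 values their call, mostly without a control library, and added 1. With the block 4173 genes were called in WT cells, 4341 in D538G cells and 2680 against miR-331, and 12 differed between genotypes. The GC correction alone gave 1115 and 204 genes in WT and D538G cells; block and GC correction together gave 2781 in D538G cells and 11 between genotypes. Without a filter there were 2438 in D538G cells and 21 between genotypes, where DESeq2 gave 2. Leaving out 1 library gave 888 to 2420 in WT cells, 357 to 1804 in D538G cells, 503 to 2567 against miR-331 and 1 to 2 between genotypes.

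For the GC correction alone, and for block and GC correction, the 8mer difference from genes without a site was −0.235 and −0.235, the 7-base difference −0.108 and −0.109, the coding difference −0.297 and −0.308, the miR-181 target median −0.253 and −0.258, and the ZNF median −0.136 and −0.142. With 8-base matches the 7-base and coding differences were −0.353 and −0.71. Leaving out 1 library gave −0.546 to −0.448 for the coding difference, −0.467 to −0.271 for miR-181 targets, −0.354 to −0.0233 for estrogen response and −0.294 to −0.2001 for ZNF genes. No value that changed sign was called under the setting that turned it. They were CDK1 (−0.00496 without a filter, −0.0525 to 0.0719 leaving out 1 library, −0.0515 among them), TTN leaving out 1 library (−0.229 to 0.0285), and, with the GC correction and with both, COL1A1 (−0.0147 and −0.0165), NCKAP1 (0.0789 and 0.0786), PRKD3 (0.0632 and 0.0637) and TTN (0.0454 and 0.0462).

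With 2 libraries per group, and each line 1 clone, the spread is poorly known and the number of called genes rested on single control libraries. Genes with few counts were measured with low precision. Match classes used 1 transcript per gene and no conservation or accessibility, site number went with 3′UTR length and with GC content, and protein levels were not measured in these libraries.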
